A study of Mus musculus with 6 samples.

Results

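The genes described are the replication-dependent histone genes of 4T1 cells, a mouse mammary carcinoma line, in RNA sequencing after infection with short hairpins. The deposited table calls the cells 4T1_T, a form of 4T1 that the labels do not describe. Members were the rows of the deposited count table whose symbol begins with Hist1h, Hist2h, Hist3h or Hist4h and that held at least 50 reads over the 5 libraries with reads. This gave 56 of 23481 genes, out of 68 rows with such a symbol. The other 12 rows were under the minimum, and 7 of those had 0 reads. The lowest member, Hist4h4, had 97 reads, and the nearest rows below the minimum, Hist3h2ba and Hist3h2bb-ps, had 9 and 7. All 56 members passed the filter on low counts and were tested among 12457 genes.

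The groups were shAsns-2 (2 libraries, A and B), shAsns-1 (2 libraries) and shRenilla (2 libraries, A and B). Both Asns hairpins are directed against Asns, which encodes asparagine synthetase, the enzyme that makes asparagine from aspartate. The shRenilla hairpin is directed against a luciferase that mouse cells lack. All groups were infected cells of the same line, grown in DMEM with non-essential amino acids, a supplement that contains asparagine. The labels give no vector, time after infection or clone, and leave unsaid if A and B were grown apart. The p-values therefore measure only the spread between these libraries, which may be technical.

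Every gene had 0 reads in shAsns-1 B, which was therefore not used, so the groups compared hold 2, 1 and 2 libraries. Asns had 45.7 and 44.2 CPM in the shAsns-2 libraries A and B, 110 CPM in the shAsns-1 library and 58.7 and 56.9 CPM in shRenilla A and B, where CPM is reads scaled to 1000000 gene reads per library. In shAsns-2 the difference had a log2 fold change of -0.34 and did not pass edgeR's quasi-likelihood test (adjusted p = 0.216). In the shAsns-1 library Asns was higher, against the label (log2 fold change 0.92, adjusted p = 6.27e-05, edgeR), so that library is called the library labelled shAsns-1. Gene reads per library ranged from 10244753 to 15955168, of which members took 15160 to 21115. The epithelial markers Krt8, Krt18, Krt19, Epcam and Cdh1 were present in every library, from 18.9 to 432 CPM, and the leukocyte markers Ptprc, Cd3e, Cd79a and Itgam stayed under 0.9 CPM.

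Histones are the proteins around which DNA is wound. A nucleosome is built from H2A, H2B, H3 and H4, and H1 binds the linker DNA between nucleosomes. The replication-dependent genes are transcribed mainly in S phase, when new chromatin needs histones, and lie in clusters. Their mRNAs end in a conserved stem-loop instead of a poly(A) tail: the stem-loop binding protein (Slbp) and the U7 small nuclear RNP direct the cut that forms this end. Replacement variants such as H2afz are made outside S phase too, from polyadenylated mRNAs.

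The members comprised 4 H1, 13 H2A, 15 H2B, 12 H3 and 12 H4 genes. In the GENCODE M21 annotation of GRCm38, 46 lie on chromosome 13 (cluster Hist1) and 8 on chromosome 3 (Hist2, chr3:96219865-96270132). Hist3h2a lies on chromosome 11 and Hist4h4 on chromosome 6. The stem-loop was looked for in the annotated 3′ UTRs. Of the members, 14 have a model that ends with the coding part. A match was found in 39 of the other 42. The matches began 21 to 54 bases after the stop codon, with a median of 31. The other 3 (Hist1h2bc, Hist2h2be and Hist2h3b) have a UTR without a match. That of Hist2h3b has only 37 bases. A stem-loop 30 bases after the stop codon, as in Hist2h3c1 and Hist2h3c2, would run past its end. The missing match therefore does not show that Hist2h3b lacks a stem-loop. The letters of the matches fell into 8 forms. The following examples, read from the GENCODE transcripts, show differences between classes. Some examples share a form, the forms of Hist1h4i and Hist2h2ac are not shown, and no H2A gene is among them. Capitals mark the 16 bases of the stem-loop, with 6 bases on each side.
Hist1h1e: cccaaaGGCTCTTTTCAGAGCCacccac
Hist1h2bm: cacaaaGGCTCTTTTCAGAGCCactaag
Hist2h3c1: cacaaaGGCTCTTTTCAGAGCCaccaca
Hist1h3c: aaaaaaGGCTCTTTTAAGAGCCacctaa
Hist1h3g: tttaaaGGCTCTTCTTAGAGCCacccat
Hist1h4d: accaaaGGCCCTTTTCAGGGCCactacc
Hist1h4a: accaaaGGCCCTTCTCAGGGCCgcccac
Hist1h4j: cctaaaGGTCCTTTTCAGGACCaccaca

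The form of Hist1h1e was the most frequent, in 21 members: 3 H1, 6 H2A, 7 H2B and 5 H3 genes. H4 genes had none of it. The form of Hist1h4d was found in 6 members and that of Hist1h4j in 2, all H4 genes. The form of Hist1h3c was found in 5 members, 2 H2B and 3 H3 genes. Hist2h3c2, in the same cluster, had the same 28 letters as Hist2h3c1.

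Promoter letters are shown for 3 genes that were higher in shAsns-2 and for Hist2h2bb, which had the lowest fold change of all members and lies next to Hist2h3b on the same strand. Each run is the 150 bases before the RefSeq start on GRCm38.p6, and capitals mark CCAAT, the octamer ATTTGCAT and TATAAA on either strand. The coordinates are chr3:96268504-96268653 (+) for Hist2h3b, chr3:96269550-96269699 (+) for Hist2h2bb, chr13:21721894-21722043 (+) for Hist1h2bm and chr13:23622559-23622708 (-) for Hist1h1e.
Hist2h3b: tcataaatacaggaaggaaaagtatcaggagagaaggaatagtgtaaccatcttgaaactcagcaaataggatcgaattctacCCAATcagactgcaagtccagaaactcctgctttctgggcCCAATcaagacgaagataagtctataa
Hist2h2bb: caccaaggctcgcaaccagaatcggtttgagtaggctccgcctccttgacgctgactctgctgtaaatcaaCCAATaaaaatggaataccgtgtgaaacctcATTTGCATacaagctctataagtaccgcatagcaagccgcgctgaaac
Hist1h2bm: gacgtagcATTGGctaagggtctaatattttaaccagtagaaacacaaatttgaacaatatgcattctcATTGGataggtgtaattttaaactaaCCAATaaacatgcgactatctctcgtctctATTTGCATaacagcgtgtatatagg
Hist1h1e: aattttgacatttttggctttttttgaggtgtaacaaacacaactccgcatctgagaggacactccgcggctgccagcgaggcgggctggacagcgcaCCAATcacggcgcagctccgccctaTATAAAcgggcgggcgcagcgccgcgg

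RefSeq gave a window of 300 bases (250 before and 50 after the start) for 51 members, 52 windows in all. The octamer, known as the Oct1 site of H2B promoters, was in 13 of the 52 windows (25%), against 1.74% of 32851 windows of all genes. These were 6 of 13 H2A and 7 of 14 H2B windows, and none of the H1, H3 or H4 windows. CCAAT was in 44 windows (84.6%), against 37.4% of all, and was in every H1, H2A, H2B and H3 window but in 3 of 11 H4 windows. TATAAA was in 30 windows (57.7%), against 13.6% of all. Of the genes shown, the octamer was present in Hist1h2bm, which was higher in shAsns-2, and in Hist2h2bb, which was not. A match describes letters only and shows no binding.

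Levels between genes were compared per length, as RPKM, the CPM per 1000 exon bases of the GENCODE model, averaged over the 5 libraries. The highest was Hist1h2bl (193 RPKM), followed by Hist1h2bm (161), Hist1h4d (155), Hist1h1b (139), Hist1h2ak (131) and Hist1h1e (125). Thus 1 or 2 genes of H1, H2A, H2B and H4 stood far above the rest of their class. Among H3 genes the highest were Hist2h3b (49.1 RPKM), Hist2h3c2 (31.5) and Hist1h3g (27.5). The lowest member was Hist4h4 (0.537 RPKM). These levels are uncertain, because the genes are alike and reads with several alignments were not set aside. The median member shared 45.5% of its 50-base windows with another histone transcript. For 23 members the share was over 50%, and for 4 (Hist1h1b, Hist2h2bb, Hist2h2be and Hist4h4) it was 0. A sum over the members of a class does not depend on how reads were split among those members. It leaves out rows under the minimum. Of the rows with 0 reads, Hist2h2aa2, Hist1h2bq and Hist1h4m share 100, 97.3 and 89.8% of their windows with another histone transcript. Their 0 does not show that these genes are silent, and the sums may be incomplete.

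Summed over all members, the level was 1744 and 1486 CPM in the shAsns-2 libraries A and B, 1480 CPM in the library labelled shAsns-1, and 1155 and 1478 CPM in shRenilla A and B. The means were 1615 ± 183 CPM in shAsns-2 and 1316 ± 229 CPM in shRenilla (SD, n = 2 each), a ratio of 1.23. Only shAsns-2 A was well above and only shRenilla A well below the other libraries. The lower of the shAsns-2 libraries exceeded the higher of the shRenilla libraries by less than the spread within either group. In bulk RNA, a different number of cells in S phase and a different amount of histone mRNA per cell cannot be told apart.

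The classes did not follow one pattern. H3 genes summed to 215 and 178 CPM in the shAsns-2 libraries A and B, 158 CPM in the library labelled shAsns-1 and 129 and 145 CPM in shRenilla A and B. The H3 ratio of shAsns-2 to shRenilla was 1.44, the highest of the classes, and the groups did not overlap. H1 genes summed to 523 and 451 CPM in shAsns-2, 456 CPM in the library labelled shAsns-1 and 343 and 414 CPM in shRenilla, a ratio of 1.29. The H1 groups did not overlap either. Much of the H1 sum came from Hist1h1e, with 303 and 265 CPM in shAsns-2 and 189 and 207 CPM in shRenilla. Of the single H1 genes only Hist1h1b overlapped, with 109 and 91.7 CPM in shAsns-2 and 80.3 and 120 CPM in shRenilla.

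For the remaining classes the libraries of both groups overlapped. H2B summed to 554 and 469 CPM in shAsns-2, 449 CPM in the library labelled shAsns-1 and 374 and 477 CPM in shRenilla (ratio 1.20). H2A summed to 184 and 159 CPM in shAsns-2, 159 CPM in the library labelled shAsns-1 and 133 and 180 CPM in shRenilla (1.10). H4 summed to 267 and 228 CPM in shAsns-2, 258 CPM in the library labelled shAsns-1 and 175 and 262 CPM in shRenilla (1.13). Without shRenilla A the direction of H2A and H4 turned, with ratios of 0.953 and 0.947. No test was run on the sums, since 2 libraries against 2 allow no exact permutation p under 0.05.

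**Figure D1:**
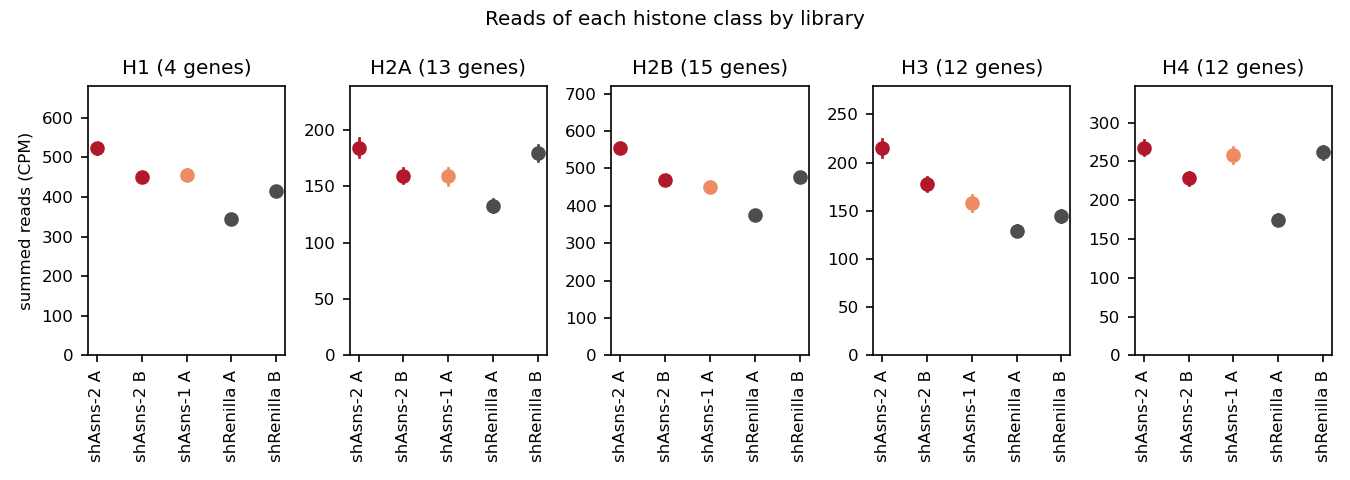
Summed level (CPM, linear axis from 0) of the members of each histone class in each library; bars are exact 95% Poisson intervals, which cover counting error only. In H1 and H3 both shAsns-2 libraries lie above both shRenilla libraries, while in H2A, H2B and H4 shRenilla B reaches the level of the shAsns-2 libraries.

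The H3 genes were summed by cluster. The 3 of Hist2, which are Hist2h3b, Hist2h3c1 and Hist2h3c2, together had 126 and 102 CPM in the shAsns-2 libraries A and B, 87.2 CPM in the library labelled shAsns-1 and 69.2 and 72.4 CPM in shRenilla A and B, a ratio of 1.61. Exact 95% intervals for counting error ran from 119 to 133 and from 96.8 to 107 CPM in shAsns-2, from 81.5 to 93.1 CPM in the library labelled shAsns-1, and from 65.2 to 73.4 and from 68.1 to 77.0 CPM in shRenilla. The intervals of the 3 groups did not touch each other, but those of shAsns-2 A and B did not touch either. As a share of all histone reads, these 3 genes made up 7.21% and 6.87% in shAsns-2, 5.89% in the library labelled shAsns-1 and 5.99% and 4.90% in shRenilla. The 95% Wilson intervals of the lower shAsns-2 share (6.53 to 7.22%) and the higher shRenilla share (5.66 to 6.34%) did not overlap. Neither did those of shRenilla A and shRenilla B (4.62 to 5.20%). Such intervals cover counting error only, so a gap between them does not measure a difference between groups.

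The H3 genes of Hist1 had a lower ratio as a sum, with 89.5 and 76.0 CPM in shAsns-2, 70.9 CPM in the library labelled shAsns-1 and 60.0 and 72.2 CPM in shRenilla (ratio 1.25). Of the other Hist2 members, only Hist2h2bb had a negative log2 fold change (-0.72). Hist2h2ab and Hist2h2ac, of H2A, had 0.73 and 0.14, Hist2h4 had 0.59 and Hist2h2be had 0.51. The H2B pair of the cluster, Hist2h2bb and Hist2h2be, summed to a ratio of 0.931. The members other than the Hist2 H3 genes summed to 1618 and 1384 CPM in shAsns-2, 1393 CPM in the library labelled shAsns-1 and 1085 and 1405 CPM in shRenilla (1.21). Whether the Hist2 H3 genes differ from the other members was not tested.

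Gene by gene, 5 of the 56 members were higher in shAsns-2 than in shRenilla at an adjusted p under 0.05, and none was lower (edgeR's quasi-likelihood test, Benjamini-Hochberg adjustment over 12457 genes). Over all genes 8 were called higher, or 0.0642%, and 0 lower. The remaining 3 were Gng5, Rplp1 and Slpi, named after their values were seen. The called members were the 3 Hist2 H3 genes, Hist1h2bm and Hist1h1e. In fits with 1 library fewer, no member was called without shAsns-2 A, shRenilla A or shRenilla B, and 3 were without shAsns-2 B. The fold changes kept their sign in these fits: Hist2h3b ran from 0.66 to 1.07, Hist1h2bm from 0.50 to 0.99, Hist2h3c2 from 0.55 to 0.86, Hist2h3c1 from 0.48 to 0.71 and Hist1h1e from 0.44 to 0.65.

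Hist2h3b (chr3:96268654-96269141, +), a gene of H3, had 35.8 and 27.1 CPM in the shAsns-2 libraries A and B, 21.9 CPM in the library labelled shAsns-1 and 15.9 and 19.0 CPM in shRenilla A and B. It averaged 31.4 ± 6.18 CPM in shAsns-2 and 17.5 ± 2.21 CPM in shRenilla (SD, n = 2 each). The log2 fold change was 0.87 (SE 0.136, edgeR adjusted p = 0.0235), the highest of all members. The shAsns-2 libraries were above the shRenilla libraries with no overlap, and the library labelled shAsns-1 lay between them. Of its 50-base windows 79.7% occur in another histone transcript, most of all Hist2h3c1.

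Hist2h3c2 (chr3:96238108-96239127, -) had 44.4 and 36.0 CPM in shAsns-2, 30.5 CPM in the library labelled shAsns-1 and 25.7 and 24.3 CPM in shRenilla. It rose by 0.71 on the log2 scale (SE 0.114, edgeR adjusted p = 0.0235). Hist2h3c1 (chr3:96246685-96248509, +) had 45.5 and 39.0 CPM in shAsns-2, 34.8 CPM in the library labelled shAsns-1 and 27.6 and 29.1 CPM in shRenilla. It rose by 0.60 (SE 0.105, edgeR adjusted p = 0.0427). Both genes were highest in shAsns-2 A, and neither overlapped between the groups. Since the 3 genes share sequence, their calls are not independent of each other. The call of Hist2h3c1 was lost with DESeq2 (adjusted p = 0.110), with limma-voom (0.0687) and without scaling factors (0.087), at log2 fold changes of 0.60, 0.59 and 0.57.

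Hist1h2bm (chr13:21722044-21722567, +) encodes H2B and had 121 and 87.3 CPM in shAsns-2, 87.8 CPM in the library labelled shAsns-1 and 66.5 and 58.4 CPM in shRenilla. It averaged 104 ± 24.0 CPM in shAsns-2 and 62.5 ± 5.70 CPM in shRenilla (SD, n = 2 each), a log2 fold change of 0.76 (SE 0.123, edgeR adjusted p = 0.0235). shAsns-2 A stood above the other libraries, and shAsns-2 B equalled the library labelled shAsns-1 to within 1 CPM. With DESeq2 the call was lost (adjusted p = 0.685) at a fold change of 0.77. Hist1h1e (chr13:23620629-23622558, -), a gene of the H1 linker histones, had 303 and 265 CPM in shAsns-2, 240 CPM in the library labelled shAsns-1 and 189 and 207 CPM in shRenilla. It was the member with the most reads and rose by 0.55 (SE 0.0871, edgeR adjusted p = 0.0235). Its groups did not overlap. The model of Hist1h1e overlaps the long model of Hist1h2be on the same strand, which had 72.7 and 62.4 CPM in shAsns-2, 54.3 CPM in the library labelled shAsns-1 and 47.6 and 52.0 CPM in shRenilla, so reads in the shared stretch cannot be assigned to one of them.

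**Figure D2:**
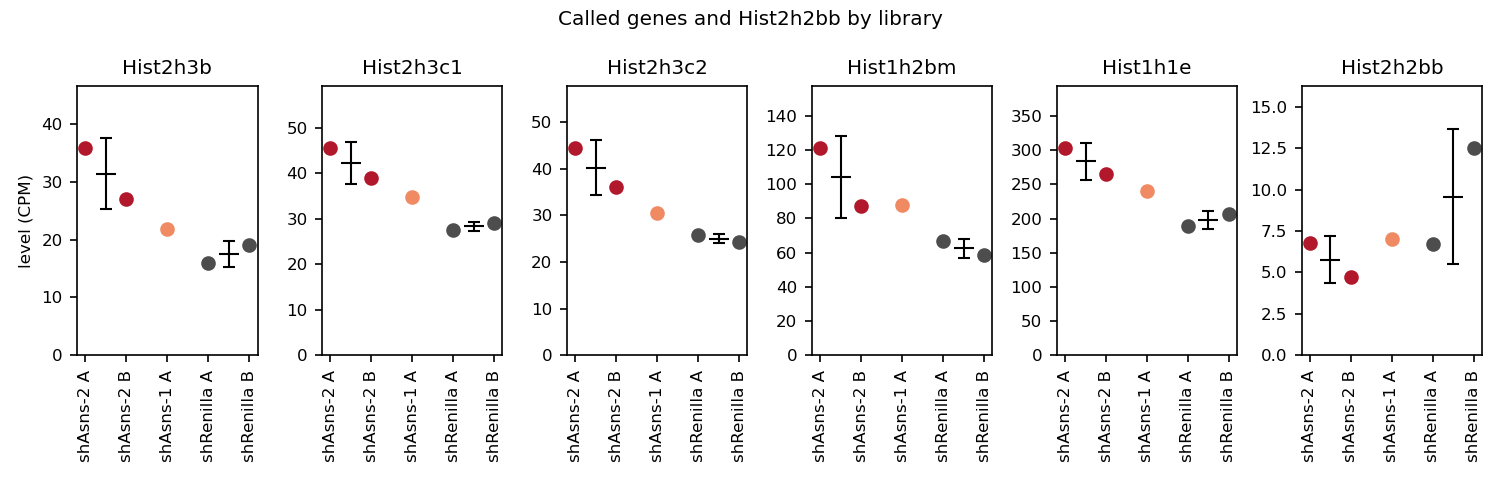
Level (CPM, linear axes from 0) of the 5 called members and of Hist2h2bb in each library, as points; the bars beside the points are mean ± SD of the 2 libraries of shAsns-2 and of shRenilla. In the 5 called members both shAsns-2 points lie above both shRenilla points, and in Hist2h2bb shRenilla B lies apart at 12.5 CPM.

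Below the threshold, most members leaned the same way. The median log2 fold change over the 56 members was 0.25, against -0.00 over all genes tested, and 51 of 56 were positive (91.1%), against 49.7% of all genes. At an unadjusted p under 0.05, 17 members were higher, against 5.59% of all genes, and 1 was lower, against 4.05%. For 22 members both shAsns-2 libraries had a higher CPM than both shRenilla libraries (39.3%), against 16.6% of all genes. For 0 members both were lower, against 25.8%. With TMM-scaled libraries the counts were 25 and 0, against 20.5% and 20.8% of all genes. The median moved with each library of both groups: with shAsns-2 A left out it was 0.13 and with shAsns-2 B left out 0.41, and it was 0.09 without shRenilla A and 0.49 without shRenilla B. Of the 56 members, 40 were positive without shAsns-2 A and 36 without shRenilla A.

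By class, all 4 H1, all 12 H3 and all 12 H4 members had positive fold changes, with medians of 0.38, 0.45 and 0.38. Without shRenilla A 3 of 4 H1, 10 of 12 H3 and 9 of 12 H4 members were positive, and without shAsns-2 A 3, 10 and 10. Of H2B 13 of 15 were positive (median 0.24), and of H2A 10 of 13 (median 0.10). The groups did not overlap for 8 of 12 H3 (66.7%), 3 of 4 H1 (75%), 5 of 12 H4 (41.7%), 4 of 15 H2B (26.7%) and 2 of 13 H2A members (15.4%). In all of these shAsns-2 was higher, as in 16.6% of all genes, so the H2A count was no more than that share. Of H1, Hist1h1c and Hist1h1d had 0.38 each (edgeR adjusted p = 0.222 and 0.269), and Hist1h1b, the H1 gene with the highest level per length, had 0.03. The differences between classes were not tested.

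Several other members had no overlap between the groups but missed the threshold, some with fold changes as large as those called. Hist2h2ab, of H2A, had 10.7 and 8.28 CPM in shAsns-2, 7.22 CPM in the library labelled shAsns-1 and 5.26 and 6.30 CPM in shRenilla (0.73, edgeR adjusted p = 0.192). Hist1h3c, of H3, had 9.07 and 7.99 CPM in shAsns-2, 9.27 CPM in the library labelled shAsns-1 and 5.33 and 5.67 CPM in shRenilla (0.65, adjusted p = 0.216). Hist1h3g, Hist1h3f and Hist2h4 had 0.59 each, and Hist1h2be had 0.47 (adjusted p = 0.0921), below every called member.

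The member with the lowest fold change was Hist2h2bb, an H2B gene that lies next to Hist2h3b. It had 6.78 and 4.75 CPM in shAsns-2, 7.03 CPM in the library labelled shAsns-1 and 6.71 and 12.5 CPM in shRenilla (log2 fold change -0.72, SE 0.250, edgeR adjusted p = 0.367). shRenilla B alone was high, and shRenilla A was within the range of the other libraries. The next lowest were Hist1h2ah (-0.10), Hist1h2ae (-0.08) and Hist3h2a (-0.03), all H2A genes, and Hist1h2bb (-0.00). Hist3h2a, the Hist3 member, had 6.21 and 6.12 CPM in shAsns-2, 6.83 CPM in the library labelled shAsns-1 and 5.83 and 7.07 CPM in shRenilla. Hist4h4, the Hist4 member, had 1.53 and 1.66 CPM in shAsns-2, 1.85 CPM in the library labelled shAsns-1 and 0.752 and 1.89 CPM in shRenilla. Neither cluster separated the groups.

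**Figure D3:**
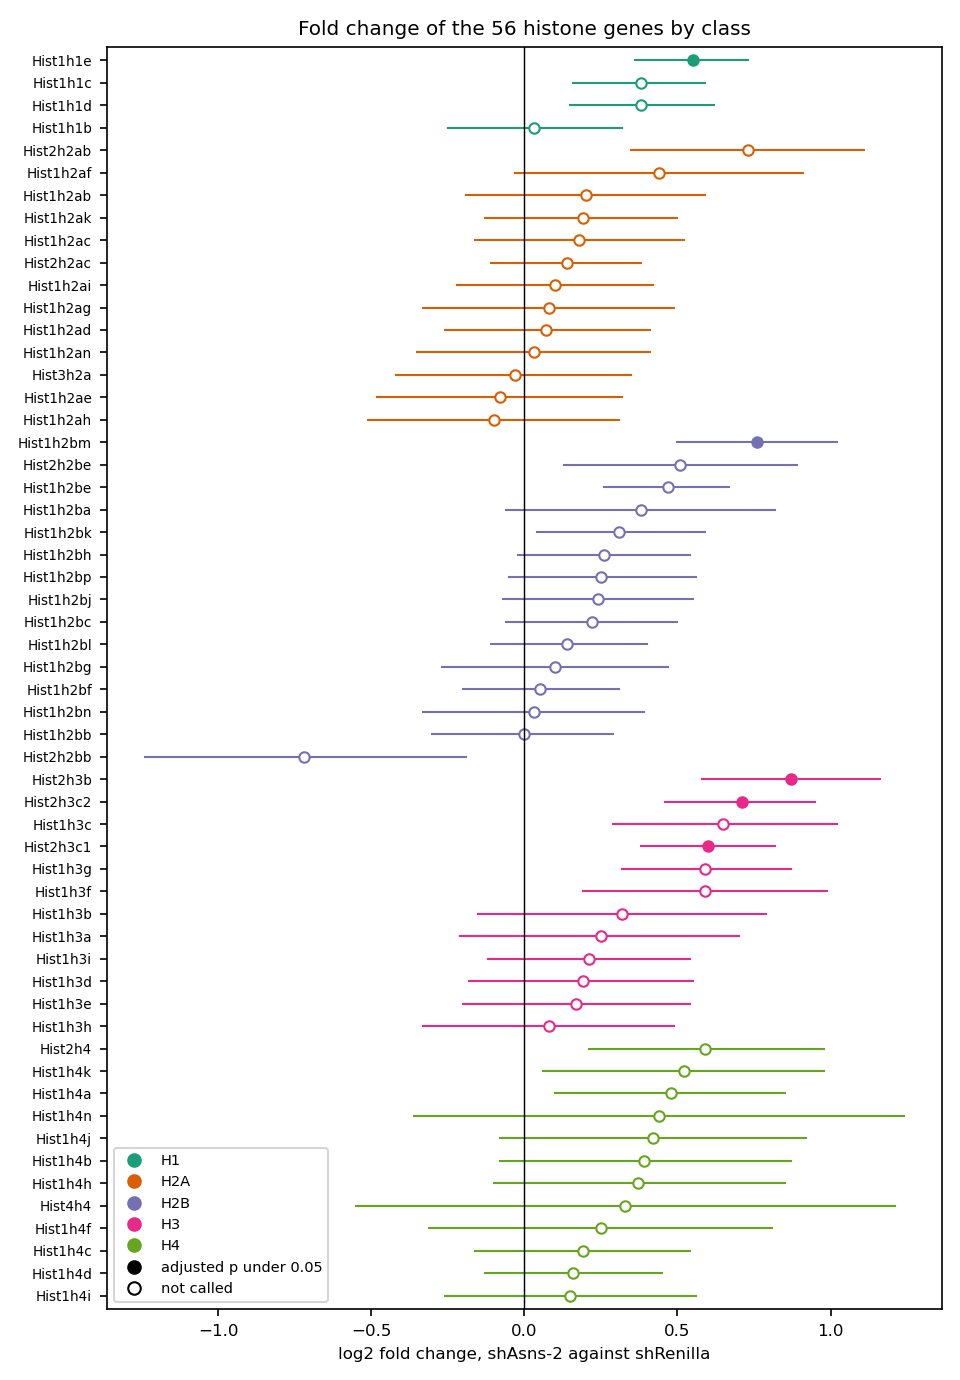
Log2 fold change of shAsns-2 against shRenilla for the 56 members, coloured by class, with 95% confidence intervals from edgeR; filled points have an adjusted p under 0.05. Of the points 51 lie above 0, the 5 filled ones lie between 0.55 and 0.87, and Hist2h2bb lies lowest at -0.72.

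By position, the 46 Hist1 members had a median log2 fold change of 0.23 and the 8 Hist2 members one of 0.60, with 7 of 8 positive. The Hist1 sum was 1547 and 1320 CPM in shAsns-2, 1330 CPM in the library labelled shAsns-1 and 1032 and 1339 CPM in shRenilla, and the groups overlapped. The Hist2 sum was 189 and 158 CPM in shAsns-2, 141 CPM in the library labelled shAsns-1 and 116 and 130 CPM in shRenilla. Its groups did not overlap (ratio 1.41). Most of this sum came from the 3 called H3 genes, with 126 and 102 CPM in shAsns-2 and 69.2 and 72.4 CPM in shRenilla. The Hist2 sum is therefore no separate result. Within Hist1, the stretches of chromosome 13 that hold 18 and 27 members had medians of 0.17 and 0.25. The lone gene beyond them, Hist1h2ba, known as a testis H2B, had 0.38 (edgeR, not called).

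Features of the transcripts were set beside the fold changes. Members that shared at most 50% of their windows with another histone transcript had a median of 0.26, and those that shared more had 0.20. Members whose model continues 100 or more bases past the stem-loop numbered 21 and had a median of 0.33. The 18 with a shorter end had 0.25. None of these splits was tested.

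The 2 shRenilla libraries differed from each other in histone levels. The summed level of shRenilla B was 1.28 times that of shRenilla A, and 52 of 56 members were higher in B, with a median ratio of 1.29 against 1.01 over all genes. By exact 95% binomial intervals on the counts, the ratio was above 1 for 29 members and below 1 for 2, Hist1h2bm (0.879) and Hist2h2be (0.735). The ratio of the class sums was 1.49 for H4, 1.36 for H2A, 1.28 for H2B, 1.21 for H1 and 1.12 for H3, and 1.05 for the 3 Hist2 H3 genes. The classes with the largest spread between the controls were those whose sums overlapped between the groups. Both measures depend on how high shRenilla B was, so this is no separate result.

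Abundant members were on both sides of this spread. Hist1h1e had a ratio of 1.10 and Hist1h2bm one of 0.879, while Hist1h4d had 1.53, Hist1h1b 1.49 and Hist1h2ak 1.62. Hist1h4d, the leading H4 gene, had 195 and 167 CPM in shAsns-2, 191 CPM in the library labelled shAsns-1 and 131 and 200 CPM in shRenilla. Hist1h1b had 109 and 91.7 CPM in shAsns-2, 117 CPM in the library labelled shAsns-1 and 80.3 and 120 CPM in shRenilla. Hist1h2ak, the leading H2A gene, had 57.1 and 50.9 CPM in shAsns-2, 53.1 CPM in the library labelled shAsns-1 and 37.0 and 59.8 CPM in shRenilla. In each of the last 3 genes shRenilla A was the lowest and shRenilla B the highest library. Hist1h4i, of H4, had 13.9 and 11.3 CPM in shAsns-2, 14.5 CPM in the library labelled shAsns-1 and 8.59 and 14.6 CPM in shRenilla, the same order. Hist1h2ai, of H2A, had 11.2 and 11.3 CPM in shAsns-2, 10.6 CPM in the library labelled shAsns-1 and 9.40 and 12.1 CPM in shRenilla, a ratio of 1.29 between the controls. The shAsns-2 libraries also differed: A was 1.17 times B in the sum and higher in 50 of 56 members, against a median of 0.995 over all genes. The interval was above 1 for 22 members and below 1 for 0.

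**Figure D4:**
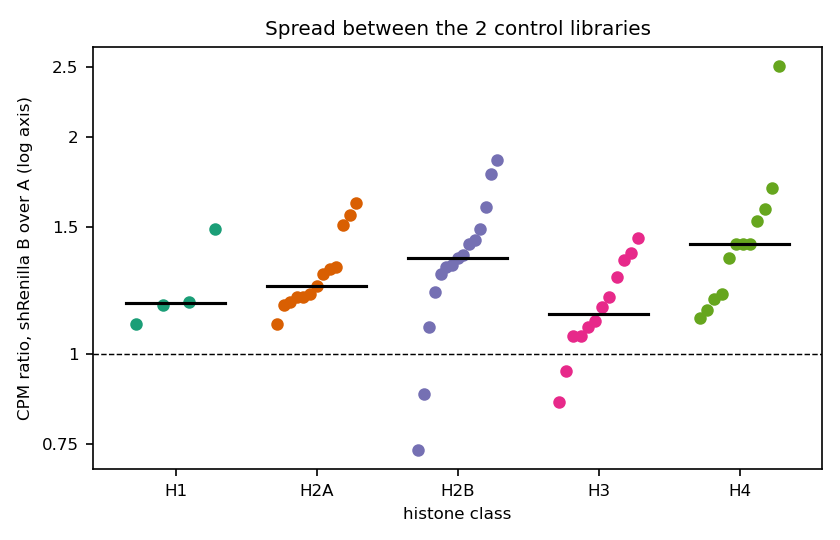
Ratio of the CPM of shRenilla B to that of shRenilla A (log axis) for each member, by class; horizontal bars are class medians and the dashed line marks equal levels. Most points lie above 1, up to 2.51 for Hist4h4, and H3 genes lie closest to the line.

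**Figure D5:**
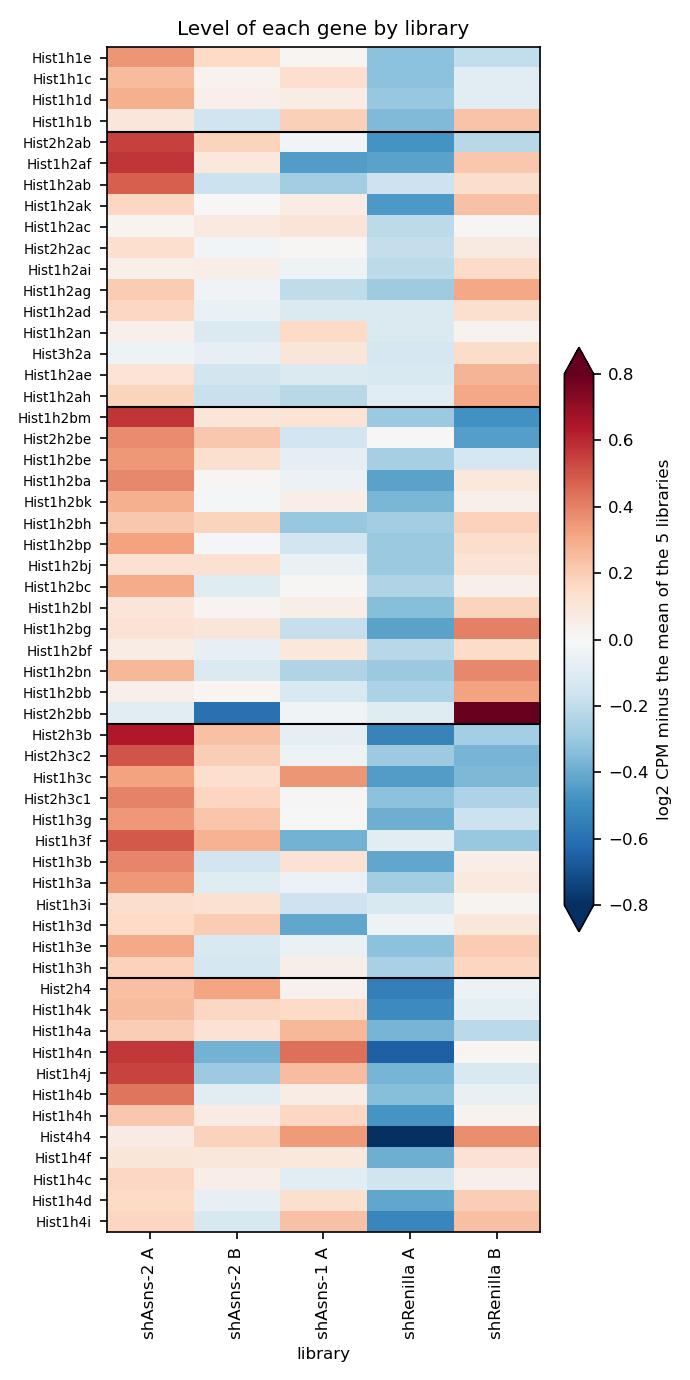
Level of each member in each library, as log2 CPM minus its mean over the 5 libraries, with genes ordered by class and fold change; colours saturate at 0.8 on either side. shRenilla A is low in nearly every row, shAsns-2 A is high in most, and shRenilla B is low in the Hist2 H3 genes and high in many H2A and H2B genes.

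In the library labelled shAsns-1 against shRenilla, 0 members were called by edgeR, DESeq2 or limma-voom, where edgeR called 4.37% of all genes in either direction. DESeq2 gave no adjusted p there for several members, among them Hist1h3c, so it could not call those. At an unadjusted p under 0.05, 6 members were higher, against 10% of all genes, and 0 lower, against 9.54%. The median log2 fold change was 0.11, and it was -0.05 without shRenilla A. Without shRenilla A 1 member was called lower, and without shRenilla B 3 were called higher. The highest was Hist1h3c (0.74, edgeR adjusted p = 0.0587), followed by Hist1h4n (0.72), Hist1h4a (0.55), Hist4h4 (0.50), Hist1h4j (0.48) and Hist1h2bm (0.48). Of H4, 11 of 12 members were positive, with a median of 0.35, and of H2A 6 of 13, with a median of -0.02. Without shRenilla A 7 of 12 H4 (median 0.10) and 3 of 13 H2A members (median -0.19) were positive. Without shRenilla B 12 of 12 (0.61) and 8 of 13 (0.16) were. The lowest were Hist1h3d (-0.45), Hist2h2bb (-0.44), Hist1h2af (-0.37), Hist1h2ah (-0.35) and Hist1h2bn (-0.33). The 3 Hist2 H3 genes had 0.31, 0.29 and 0.27 there (edgeR adjusted p = 0.352 for Hist2h3b, 0.244 for Hist2h3c1 and 0.326 for Hist2h3c2). This contrast shares the shRenilla libraries with the one above.

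Between shAsns-2 and the library labelled shAsns-1, 0 members were called by edgeR, DESeq2 or limma-voom, where edgeR called 2.14% of all genes. At an unadjusted p under 0.05, 9 members were higher in shAsns-2, against 8.87% of all genes, and 0 lower, against 7.89%. Without shAsns-2 B or shRenilla B 1 member was called higher in shAsns-2. Hist2h3b had a log2 difference of 0.55 between them (edgeR adjusted p = 0.113). A call against shRenilla in shAsns-2 alone is therefore not a shown difference between the hairpins.

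The genes that act with histones were set beside them in 5 lists, in none of which DESeq2 or limma-voom called a gene in shAsns-2 against shRenilla. Of 50 S phase genes, 0 were called in shAsns-2 against shRenilla (edgeR; 3 higher and 1 lower at an unadjusted p under 0.05), with a median log2 fold change of 0.00. Their summed level was 10341 and 9986 CPM in shAsns-2, 10170 CPM in the library labelled shAsns-1 and 10379 and 10418 CPM in shRenilla. Unlike the histone sum, this sum differed little between shRenilla A and B. The smallest p values were those of Gins2, a subunit of the replicative helicase (0.33, edgeR adjusted p = 0.320), and Ccne1, a cyclin of entry into S phase (0.45, 0.456). In the library labelled shAsns-1 edgeR called 2 of the 50, against 4.37% of all genes. These were Ccne2, another such cyclin, which rose by 0.68 (edgeR adjusted p = 0.00593), and Pcna, the replication clamp, by 0.47 (0.0143).

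Of 35 tested genes of histone mRNA end formation and turnover, 0 were called in shAsns-2 (edgeR; 0 at an unadjusted p under 0.05 in either direction), with a median of -0.02. Slbp had 90.3 and 102 CPM in shAsns-2, 114 CPM in the library labelled shAsns-1 and 98.6 and 111 CPM in shRenilla (-0.10, adjusted p = 0.762). Npat, the activator of histone transcription, had a log2 fold change of -0.13 (adjusted p = 0.650). Cpsf4 and Ncbp1, of the cleavage complex and the cap-binding complex, had the smallest p values (-0.22 and -0.14, adjusted p = 0.603 and 0.618). In the library labelled shAsns-1 edgeR called 1 of the 35, against 4.37% of all genes. This was Zcchc11, a uridylyl transferase of RNA 3′ ends, which rose by 0.36 (edgeR adjusted p = 0.0442). Of 27 genes of histone chaperones and import, 0 were called in shAsns-2 (0 at an unadjusted p under 0.05, median -0.04), and Ssrp1 and Tonsl had the smallest p values (-0.15 and -0.20, edgeR adjusted p = 0.581 and 0.611). Cabin1, a partner of the chaperone Hira, fell by 0.41 in the library labelled shAsns-1 (edgeR adjusted p = 0.0422). It was the 1 gene of the 27 called there, against the same 4.37% of all genes.

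Of 9 tested replacement variants, 0 were called in shAsns-2 (median 0.07). At an unadjusted p under 0.05, 3 were higher: H2afx (0.28), H2afv (0.26) and H2afz (0.22). H2afz had 503 and 500 CPM in shAsns-2, 579 CPM in the library labelled shAsns-1 and 401 and 475 CPM in shRenilla. H2afz and H2afv rose in the library labelled shAsns-1, by 0.39 and 0.63 (edgeR adjusted p = 0.0424 and 0.00995). They were the 2 called there of the 9 tested, against 4.37% of all genes.

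RNAs outside the histones that lack a poly(A) tail, wholly or in some of their forms, were also followed, since the recovery of such RNAs can differ between libraries. Of 6 tested, 0 were called in shAsns-2 (edgeR; 2 higher at an unadjusted p under 0.05), with a median of 0.26. Rn45s, the ribosomal RNA precursor, had 28889 and 27648 CPM in shAsns-2, 19900 CPM in the library labelled shAsns-1 and 20537 and 24239 CPM in shRenilla (0.37, edgeR adjusted p = 0.192). Rmrp, an RNA of ribosomal RNA processing, had 14.9 and 15.4 CPM in shAsns-2, 11.3 CPM in the library labelled shAsns-1 and 11.5 and 6.37 CPM in shRenilla (0.78, adjusted p = 0.192). Malat1 had 10324 and 10525 CPM in shAsns-2, 9127 CPM in the library labelled shAsns-1 and 11407 and 7572 CPM in shRenilla. On the log2 scale Terc, Rpph1 and Neat1 differed by 0.75, 0.14 and -0.11 (edgeR adjusted p = 0.589, 0.945 and 0.809). Rn45s and Rmrp were both highest in shAsns-2. Between the controls, Rn45s and Terc were higher in shRenilla B than in shRenilla A, as most histone genes were, and Rmrp, Malat1, Neat1 and Rpph1 were lower. Their part in the histone result was not tested.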

How the data were processed

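RNA from infected 4T1 cells was extracted with Trizol and turned into libraries by the Nugen Ovation RNA-Seq V2 kit, per the labels' protocols. The authors deposited integer read counts per gene for 6 libraries. The submitters' processing notes name Bowtie2, HTSeq and mm10, with versions, annotation and strandedness not given in the sources used here. Library sizes leave out the 5 HTSeq tallies (reads in no annotated feature 36.1 to 38.3% of all reads, unaligned reads 17.9 to 23.2%, reads matching several genes 0.584 to 0.626%).

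Counts were fitted with edgeR 4.0.16 (R 4.3.3; quasi-likelihood test, TMM factors, filterByExpr, 3 groups in one model). The planned 6 libraries became 5, leaving 2 residual degrees of freedom; the single shAsns-1 library is taken to vary as the others do. The script was tested on simulated data. CPM used all gene reads, and 3 reads correspond to 0.188 to 0.293 CPM. DESeq2 1.42.0, limma 3.58.1 and other settings were alternatives.

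The members, the gene lists and the cell markers were chosen with earlier results of these data known. Named members were those called, the 3 most abundant of each class, the 5 highest and 5 lowest fold changes in the contrasts with shRenilla, and the Hist3 and Hist4 members; from other lists, genes called, the 2 with the smallest p, Slbp, Npat and Asns. Further members were named to show a class or a library difference, after their values were seen. All 56 members matched a RefSeq symbol.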

Additional observations from a re-analysis of the deposited data

How the results depend on the processing

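The main count of 5 called members in shAsns-2 against shRenilla was 11 without a filter on low counts, 12 with the replicate block (11 higher and 1 lower), 3 with DESeq2 and 0 to 5 when 1 library was left out; limma-voom and no scaling gave 4 each. The count of 0 in the library labelled shAsns-1 was 2 without the filter, 1 with only the groups compared and 2 with a GC trend removed, an alternative chosen after seeing the data, and 0 to 3 when 1 library was left out. Between shAsns-2 and the library labelled shAsns-1 the count of 0 was 5 without the filter, 5 with the replicate block, 1 with only the groups compared and 0 to 1 when 1 library was left out. The median log2 fold change in shAsns-2 of 0.25 ran from 0.09 to 0.49 when 1 library was left out. The cause of these moves was not tested. Calls over all genes in these other settings are not given here. The counts of members there cannot be set against a share of all genes, so a rise is no result about histones. Without the filter 10 of the 11 were higher and 1 lower. Hist2h2bb was the member called lower there (edgeR adjusted p = 0.0105) and with the replicate block (0.0159). No called member changed sign, but 15 others did in shAsns-2 against shRenilla without shRenilla A, 11 without shAsns-2 A, 4 without shRenilla B and 3 without shAsns-2 B. The members named in the text are given here. Leaving out 1 library gave log2 fold changes in shAsns-2 against shRenilla from -0.22 to 0.34 for Hist1h1b, -0.26 to 0.11 for Hist1h2ae, -0.28 to 0.10 for Hist1h2ah, -0.07 to 0.28 for Hist1h2ai, -0.12 to 0.56 for Hist1h2ak, -0.26 to 0.30 for Hist1h2bb, -0.09 to 0.42 for Hist1h2bl, -0.27 to 0.39 for Hist1h2bn, -0.11 to 0.49 for Hist1h4d, -0.18 to 0.56 for Hist1h4i, -0.02 to 0.82 for Hist1h4j, -0.06 to 0.89 for Hist1h4n, -0.16 to 0.10 for Hist3h2a and -0.20 to 1.10 for Hist4h4. In the library labelled shAsns-1 it gave -0.63 to 0.03 for Hist1h2bn, -0.83 to 0.05 for Hist2h2bb and -0.03 to 1.27 for Hist4h4. With the GC trend removed Hist1h2ai was at -0.05 and Hist1h2bn at -0.06, and without scaling Hist1h2bn was at -0.00. Hist1h2bb was at 0.03 with limma-voom and 0.00 with the replicate block. The labels do not say what the letters A and B mark. Deviations of libraries with the same letter correlated at 0.0267 over 8951 genes. With 2 libraries per group this cannot show whether libraries with the same letter were grown together. The replicate block is therefore not read as a pairing. Depth limits members with few reads, such as Hist4h4 with 97 reads in all. Intervals on single libraries cover counting error only.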
